A study of Rattus norvegicus with 16 samples.

Results

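Nppa and Nppb encode the precursors of atrial and B-type natriuretic peptide, hormones that the heart releases into the blood. Both genes are described here across 16 rat hearts, as 2 of the 23918 genes in the deposited tables. They were picked by Ensembl identifier, ENSRNOG00000008176.5 for Nppa and ENSRNOG00000008141.5 for Nppb. The pairing of identifier and symbol was fixed with the choice of genes, since the tables hold identifiers alone. The rule itself uses identifiers and no measured value, but the genes were chosen with earlier results of these data known. Both members were among the 14175 genes that passed the filter on low counts.

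The peptides are stored or made in heart muscle cells and are released when the chamber wall is stretched. They bind the guanylyl cyclase receptor Npr1 in kidney and vessel, raise cyclic GMP, and promote loss of salt and water and relaxation of vessels. In the adult heart Nppa RNA is far more abundant in atrium than in ventricle, so the amount of atrium in a piece of tissue bears on its level. Nppb RNA is present in atrium and ventricle and is widely used as a marker of ventricular wall stress.

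RNA came from exsanguinated hearts of adult male Wistar rats, a non-inbred laboratory stock, weighing 240 to 260 g. Controls (n = 4) carried dose 0 and agent none. The D55 rats (n = 6) received streptozotocin at 55 mg/kg and the D100 rats (n = 6) 100 mg/kg, as 1 injection into a tail vein under halothane. Streptozotocin kills pancreatic beta cells and so lowers insulin, and hyperglycaemia (over 13 mmol/L) was verified at 24 hours with a glucometer. The animals were followed for 4 days, which makes this an early stage of insulin-deficient diabetes. The labels speak of the heart and name no chamber, no vehicle injection for controls and no batch.

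Nppa and Nppb are next to each other on rat chromosome 5, with 0 annotated genes between them in RefSeq on the GRCr8 assembly. The stretch before each start site is shown because these regions carry the binding letters for cardiac transcription factors that both genes are known for. Capitals mark matches, on either strand, to 5 short words. GATA factors read TGATAA and, as a variant of it with another first base, AGATAA. TEAD factors read the M-CAT element, here GGAATG, and the factor Nkx2-5 reads a site with the core AAGTG. The last word, TATAAA, is the usual form of the TATA box when it lies on the gene's own strand shortly before the start. The sequences are from RefSeq, read 5′ to 3′ on the plus strand at chr5:163711934-163712183 for Nppa and chr5:163699758-163699954 for Nppb. The second ends where the RefSeq gene record begins.
Nppa: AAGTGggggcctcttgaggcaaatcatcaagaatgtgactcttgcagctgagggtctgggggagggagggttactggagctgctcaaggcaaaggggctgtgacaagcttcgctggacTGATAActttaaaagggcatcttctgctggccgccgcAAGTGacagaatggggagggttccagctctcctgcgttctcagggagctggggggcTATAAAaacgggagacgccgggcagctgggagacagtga
Nppb: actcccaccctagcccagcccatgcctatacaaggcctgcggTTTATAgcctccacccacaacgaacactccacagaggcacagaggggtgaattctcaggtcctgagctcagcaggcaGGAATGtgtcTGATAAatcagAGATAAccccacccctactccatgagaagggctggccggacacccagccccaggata

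The windows had 2 of the words in common, the first GATA word and TATAAA, the latter on opposite strands. The word TGATAA stood 126 bases before the end of the Nppa window and 62 bases before the end of the Nppb window. Over 33469 rat promoters, 7.97% held TGATAA in 250 bases and 6.62% in 197 bases, the lengths of the Nppa and Nppb windows. The shares at 197 bases used the first 197 of the 250 bases before each start. They leave out the bases nearest the start, while the Nppb window runs up to its gene record. Those shares thus match the Nppb window in length but not in position. The Nppb window also held the other GATA word, found in 8.44% of promoters at that length, and the M-CAT word, found in 9.58%. The Nppa window held neither and had the Nkx2-5 core in 2 copies, a shorter word that 40.6% of promoters held. TATAAA was present on the plus strand in Nppa, 33 bases before the window end, and on the minus strand in Nppb, 149 bases before it, a place and strand that are not those of a TATA box, against 12.9% and 9.86% of promoters. No motif in these windows overlapped another. The matches describe the letters and are not evidence of binding.

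Libraries held 4.685 to 48.4 M estimated counts, and the 10 most abundant genes, which do not include Nppa or Nppb, took 30.1% to 69% of them. D55 replicates B and E stood apart with the lowest shares, 30.1% and 30.4%, and D100 replicate F was the shallowest library. The comparisons that use D55, and the correlations across libraries by Pearson's r, are therefore given with and without D55 B and E. Correlations within D55 are given with both of these libraries only. For each member 16 of 16 estimates lay within 0.01 of a whole number, as for genes whose reads are not divided with others. Counts ran from 267 to 19358 for Nppa and from 275 to 8192 for Nppb. Levels are in CPM, counts scaled to a common library total after TMM, a correction for differences in RNA composition between libraries. Transcript lengths were not used, so the levels of the 2 genes are not compared with each other.

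Nppa was measured at 69.5, 203, 29.9 and 54.2 CPM in controls 1 to 4. D55 libraries ranged from 34.4 CPM in replicate C to 266 in replicate B, with a median of 66.8. D100 libraries ranged from 24.7 CPM in replicate C to 118 in replicate A, with a median of 55.9. Control 2 and D55 B were the 2 highest libraries and came from different groups, and the 3 groups overlapped over most of their range. By mean the order was D55 at 97 CPM ± 87.7 (SD, n = 6), control at 89.2 ± 77.8 (SD, n = 4) and D100 at 57.6 ± 33.6 (SD, n = 6). No neighbours in this order differed by more than their spread.

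Nppb was measured at 87.2, 60.7, 42.2 and 82 CPM in controls 1 to 4. D55 libraries ranged from 51.8 CPM in replicate D to 113 in replicate B, with a median of 69. D100 libraries ranged from 35.7 CPM in replicate D to 70.1 in replicate E, with a median of 53.3. The groups overlapped here as well, with D55 B and E alone above every control and 1 D100 library, D, below every control. By mean, D55 led with 77.5 CPM ± 25.6 (SD, n = 6), before control with 68 ± 20.7 (SD, n = 4) and D100 with 54.2 ± 12.9 (SD, n = 6), the same order as for Nppa and again within the spread.

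**Figure D1:**
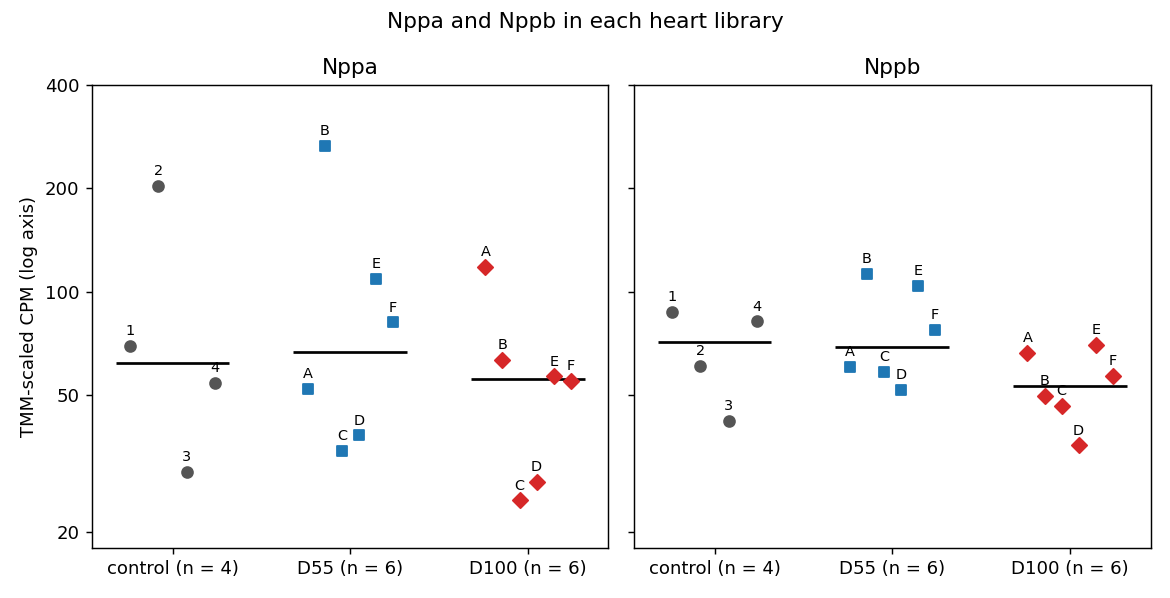
Nppa (left) and Nppb (right) in TMM-scaled CPM on a log axis, 1 point per rat heart, labelled by replicate, with the group median as a line. Nppa spans 24.7 to 266 CPM and Nppb 35.7 to 113 CPM, and the groups overlap for both genes.

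Nppa differed widely between animals of 1 group. Its highest library exceeded its lowest by 6.79-fold among the controls, 7.74-fold in D55 and 4.77-fold in D100. For Nppb the same ratios were 2.07, 2.18 and 1.96. The coefficient of variation of Nppa was 87.2%, 90.4% and 58.4% in control, D55 and D100, and that of Nppb was 30.4%, 33% and 23.8%. Counting error was far smaller, at most 6.12% for Nppa and 6.03% for Nppb, each in D100 F. In that library the exact Poisson 95% interval of Nppa was 48.7 to 62.1 CPM around 55.1, which covers counting error only.

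Set against other genes, the spread of Nppa among untreated hearts was wide. Its SD of log2 CPM over the 4 controls was 1.15, above that of 98.4% of the 14175 tested genes and of 100% of the 1123 genes within 0.5 of its mean log2 level. Much of that width came from 1 library, control 2 at 203 CPM, where the other controls lay at 29.9 to 69.5 CPM. Within D55 the SD of Nppa was 1.11, above 99.1% of the genes of similar level and 89.6% of all tested genes. Within D100 it was 0.83, above 98.3% and 76.4%. Nppb was nearer to the ordinary. Its SD was 0.48 in controls, above 92.9% of the 1112 genes of similar level, 0.47 in D55 and 0.36 in D100, each above 60.8%. Over all tested genes the shares for Nppb were 76.7% in control, 45.1% in D55 and 34% in D100. The biological coefficient of variation fitted by edgeR was 0.64 for Nppa, where the trend for genes of its abundance was 0.30, and 0.29 for Nppb, where the trend was 0.30. These shares describe the libraries and are not tests.

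The study's title concerns the severity of diabetes, so each dose was compared with control and with the other. For the higher dose against control, 0 of 2 members passed an adjusted p of 0.05 in edgeR's quasi-likelihood test, where 4.38% of all tested genes did. At an unadjusted p under 0.05 the members gave 0 of 2, against 22.8% of all genes, and 0 of 2 had groups that did not overlap, against 7.57%. DESeq2 called 0 of 2, against 10.1% of genes, while limma-voom with quality weights called both members, in a fit that called 67.7% of genes. Nppa was lower by estimate, at -0.63 on the log2 scale (SE 0.6, edgeR adjusted p = 0.519), with a 95% interval from 0.267-fold to 1.56-fold of control. An exact two-sided permutation test of log2 CPM, over the 210 splits of 6 against 4 libraries, gave p = 0.452. Of the 6 D100 libraries, 4 lay within the control range of Nppa, 2 below it and 0 above it. The direction turned without control 2, to 0.17 (edgeR adjusted p = 0.908), and with the share of counts in the leading 10 genes as a covariate, to 0.44 (edgeR adjusted p = 0.696). The estimate was -0.17 with 1 surrogate variable and -1.22 without scaling factors, where it lay at -0.74 relative to the median of all genes.

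Nppb in D100 stood at -0.33 relative to control on the log2 scale (SE 0.26, adjusted p = 0.437 in edgeR), with a 95% interval from 0.546-fold to 1.16-fold. The exact permutation p was 0.271, and 5 of 6 D100 libraries lay within the control range. In limma-voom, which weights libraries by quality, Nppa was at -1.04 (adjusted p = 0.0465) and Nppb at -0.63 (adjusted p = 0.0046). With the share as a covariate in edgeR the direction of Nppb turned, to 0.06 (adjusted p = 0.899), and without scaling factors it was at -0.79 (adjusted p = 0.175), or -0.30 relative to the median of all genes. In bulk tissue, fewer cells of a type and less RNA per cell cannot be told apart.

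For the lower dose, D55 against control, 0 of 2 members passed in edgeR, where 0.0635% of all genes did. At an unadjusted p under 0.05 the members again gave 0 of 2, against 8.97% of genes, and 0 of 2 had groups that did not overlap, against 2.55%. DESeq2 and limma-voom each called 0 of 2 members, against 0.621% and 3.68% of genes. Nppa differed by 0.12 on the log2 scale (SE 0.61, edgeR adjusted p = 0.95), with a 95% interval from 0.446-fold to 2.65-fold of control and an exact permutation p of 0.905. Leaving out control 2 gave 0.92 and leaving out D55 B and E gave -0.79 (edgeR adjusted p = 1), so either direction could be had from a few libraries. Nppb differed by 0.19 (SE 0.26, edgeR adjusted p = 0.789), with an interval from 0.778-fold to 1.67-fold and an exact permutation p of 0.552. Without D55 B and E its difference was -0.13 (edgeR adjusted p = 1). With the share as a covariate the differences were -0.35 for Nppa and -0.04 for Nppb, and in limma-voom -0.52 and -0.18, so the direction turned there too.

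Between the doses, D100 against D55, 0 of 2 members passed in edgeR, where 35.6% of all genes did. Nppb alone had an unadjusted p under 0.05, in a comparison where 51.4% of genes had one, and 0 of 2 members had groups that did not overlap, against 4.2% of genes. DESeq2 and limma-voom each called 0 of 2, against 46.6% and 49.9%. Nppb was at -0.52 on the log2 scale in D100 relative to D55 (SE 0.23, unadjusted p = 0.041, edgeR adjusted p = 0.0849), a 95% interval from 0.497-fold to 0.984-fold. Of all tested genes 32.1% had a lower fold change than this. The exact permutation p was 0.0736, and 3 of 6 D100 libraries lay below the D55 range and 3 within it. The difference was -0.20 without D55 B and E (edgeR adjusted p = 0.565). It passed in edgeR without D55 D, at -0.61 (adjusted p = 0.0428), and without scaling factors, at -1.17 (adjusted p = 0.0149), a setting in which the median of all genes was -0.65 and Nppb lay at -0.52 relative to it. With 1 surrogate variable it was at -0.18 (edgeR adjusted p = 0.576).

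Nppa was at -0.75 in D100 relative to D55 (SE 0.55, edgeR adjusted p = 0.268), with a 95% interval from 0.266-fold to 1.32-fold. Its exact permutation p was 0.357, and 4 of 6 D100 libraries lay within the D55 range. Without D55 B and E the difference was 0.16 (edgeR adjusted p = 0.852), and without scaling factors -1.52 (edgeR adjusted p = 0.0609), or -0.87 relative to the median of all genes. The comparisons share libraries, so their directions are not independent of each other.

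**Figure D2:**
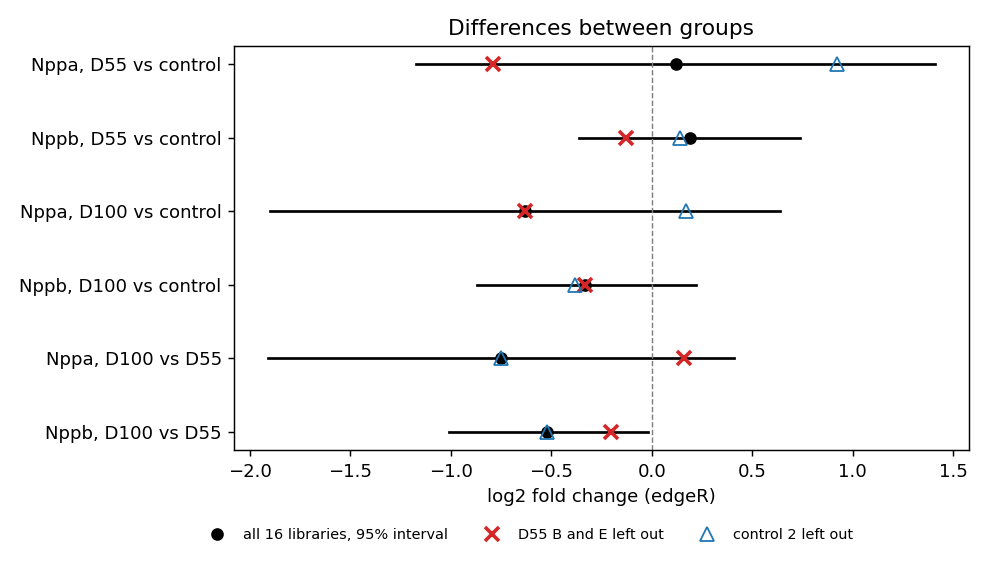
Log2 fold changes of Nppa and Nppb in the 3 comparisons, with edgeR's estimate and 95% interval over 16 libraries (black), the estimate with D55 B and E left out (red cross) and with control 2 left out (open triangle). Nppa moves to the other side of 0 in each comparison under at least 1 of these omissions, and its intervals are wider than those of Nppb.

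The ratio of Nppb to Nppa counts within a library does not depend on how libraries are scaled. It was 1.26, 0.299, 1.41 and 1.51 in controls 1 to 4. In D55 it ranged from 0.423 in replicate B to 1.7 in replicate C, with a median of 1.05, and in D100 from 0.564 in replicate A to 1.88 in replicate C, with a median of 1.13. In each group 1 library, control 2, D55 B or D100 A, had the lowest ratio and also the highest Nppa. Nppa is the denominator and varied more than Nppb, so this is in large part built into the ratio. On the log2 scale controls averaged -0.08 ± 1.11 (SD, n = 4), D55 libraries 0.01 ± 0.69 (SD, n = 6) and D100 libraries 0.07 ± 0.6 (SD, n = 6). Exact two-sided permutation tests gave p = 0.805 for D100 against control, 0.867 for D55 against control and 0.857 for D100 against D55, each 0.867 after adjustment over the 3 comparisons. Without control 2 the log2 ratio differed from control by -0.40 in D100 and -0.47 in D55 (exact permutation tests, adjusted p = 0.482 for each). With D55 B and E left out, the log2 ratio in D55 differed from control by 0.42, and that in D100 from D55 by -0.26 (exact permutation tests, adjusted p = 0.805 for each).

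Across the 16 libraries Nppa and Nppb were higher in the same hearts. Pearson's r of log2 CPM was 0.72 (permutation p = 0.00165, adjusted 0.00412 over 5 relations) and Spearman's rho 0.76 (permutation p = 0.00097, adjusted 0.00485). Without D55 B and control 2, the libraries farthest from the median Nppa, r was 0.78, and without D55 B and E it was 0.57. Within D55 r was 0.94 and rho 0.94 (n = 6, exact permutation p = 0.00417 and 0.0167). Within D100 r was 0.76 and rho 0.66 (n = 6, exact permutation p = 0.0778 and 0.175). The 4 controls were too few for a correlation, and there control 2 combined the highest Nppa, 203 CPM, with 60.7 CPM of Nppb. Both values of a library share its scaling factor.

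**Figure D3:**
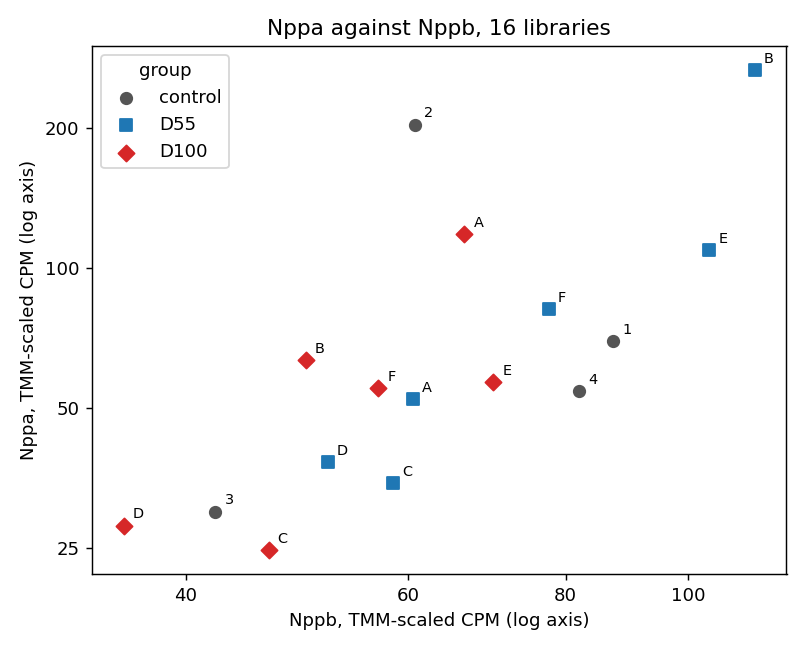
Nppa against Nppb in TMM-scaled CPM on log axes, 1 point per library, labelled by replicate. The points rise together (r = 0.72), and control 2, D55 B and D100 A lie at high Nppa for their Nppb.

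Over the 16 libraries Nppb was lower where the 10 most abundant genes took a larger share of counts. How many of all genes had as strong a relation was not computed. Against the share of the 10 most abundant genes, Nppb had r = -0.76 (permutation p = 0.00069, adjusted 0.00345) and rho = -0.71 (permutation p = 0.0025, adjusted 0.00625), and r = -0.54 without D55 B and E, which are also the 2 farthest libraries. Within D55 r was -0.84 and rho -0.77 (n = 6, exact permutation p = 0.0514 and 0.103), and within D100 both were -0.37 (n = 6, exact permutation p = 0.474 and 0.497). Nppa had r = -0.58 (permutation p = 0.0173, adjusted 0.0288) and rho = -0.46 (permutation p = 0.076, adjusted 0.095) over all libraries, -0.30 without D55 B and E, -0.72 within D55 (n = 6, exact permutation p = 0.113) and 0.02 within D100 (n = 6, exact permutation p = 0.969). Both relations were thus weaker without D55 B and E, where no p was computed. The correlations within D55 include B and E. In order of rising share, D55 C, A, F and D had shares of 42.8%, 50.6%, 52.8% and 54.7%. In that order Nppb was 58.4, 60.5, 77.6 and 51.8 CPM and Nppa 34.4, 52.2, 81.4 and 38.2 CPM, with no steady fall. The share also differed with the group, at 53.4% to 69% in D100, 30.1% to 54.7% in D55 and 43.3% to 59.4% in control, so share and group are partly confounded. With the share as a covariate in edgeR the difference of D100 from D55 was 0.10 for Nppb (adjusted p = 0.893) and 0.79 for Nppa (adjusted p = 0.643). The part of library composition in the differences between groups was not tested.

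Against the log2 total count r was 0.33 for Nppa (permutation p = 0.207, adjusted 0.207) and 0.45 for Nppb (permutation p = 0.0786, adjusted 0.0983). Spearman's rho was 0.41 for Nppa (permutation p = 0.121, adjusted 0.121) and 0.62 for Nppb (permutation p = 0.0118, adjusted 0.0197). Without D100 F and D55 B, the libraries farthest from the median depth, r was 0.39 for Nppa and 0.61 for Nppb, and without D55 B and E it was 0.14 and 0.28. Within D55 r was 0.88 for Nppa and 0.84 for Nppb (n = 6, exact permutation p = 0.0208 and 0.0444), and rho was 1 and 0.94 (n = 6, exact permutation p = 0.00278 and 0.0167), so the 6 hearts had the same order by depth and by Nppa level. Within D100 r was -0.15 and -0.18 (n = 6, exact permutation p = 0.699 and 0.728) and rho -0.20 and -0.31 (n = 6, exact permutation p = 0.714 and 0.564). The part of depth in the spread of Nppa within D55 was not tested.

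**Figure D4:**
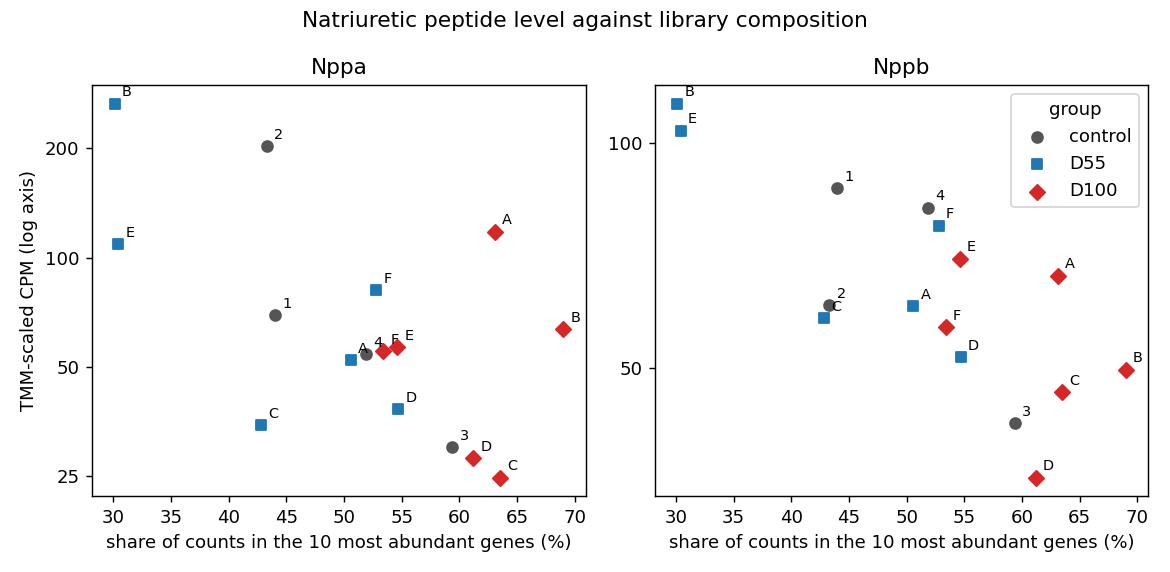
Nppa (left) and Nppb (right) in TMM-scaled CPM on log axes against the percentage of counts taken by the 10 most abundant genes, 1 point per library. D55 B and E, at 30.1% and 30.4%, are at the top for Nppb, and D100 A, B, C and D lie above 60%.

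Genes whose log2 CPM followed each member most closely over the 16 libraries were sought among 12269 others with a mean of at least 1 CPM, as a description. The nearest to Nppa were ENSRNOG00000021029.4 and ENSRNOG00000009694.6, each with r = 0.79. ENSRNOG00000021029.4 averaged 2.04 CPM and was highest in D55 B, at 8.31 CPM, and control 2, at 5.94 CPM, the same 2 libraries as Nppa. Its next highest library was D100 F, at 3.3 CPM, where Nppa was at 55.1 CPM. The gene was picked for its r with Nppa over these same libraries, so the shared high libraries follow in part from the choice. Nppb came 13th by this measure, so few genes tracked Nppa better than its neighbour did. For Nppb the nearest were ENSRNOG00000050539.2 (r = 0.90) and ENSRNOG00000048861.1 (r = 0.89), and 146 genes had r above 0.8, where Nppa had 0. Nppa ranked 1393 for Nppb. None of these 4 identifiers passed in any of the 3 comparisons in edgeR, and ENSRNOG00000048861.1 had 0 of 16 whole estimates, so its level is less sure.

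How much atrium each heart sample held could not be read from these tables. The markers chosen for atrium and ventricle, such as Myl7, Sln and Myl2, and the receptors and processing enzymes of the pathway, such as Npr1, Npr3, Corin and Furin, were listed by symbol, and 0 identifiers could be matched to symbols. The part of atrial sampling in the spread of Nppa was not tested.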

How the data were processed

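RNA of 16 hearts (control n = 4, D55 n = 6, D100 n = 6, 1 rat per library per the labels) was sequenced from 400 ng of total RNA after TRIzol isolation, with a stranded kit that selects mRNA, on a NextSeq, per the labels' protocols. The authors deposited estimated counts per gene, made with kallisto 0.43.1 on Rnor 6.0 per the submitters' processing notes. For annotation release, strand setting and read filters, nothing is given in the sources used here. Kallisto splits reads that fit several transcripts, which leaves some estimates with decimals.

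Estimated counts were rounded. Genes were kept by filterByExpr (14175 of 23918), scaled by TMM and fitted over all 16 libraries with edgeR 4.0.16 (glmQLFit, glmQLFTest) in R 4.3.3, with Benjamini-Hochberg adjustment over all tested genes. The SE is the fold change divided by the square root of F, and intervals use the fitted degrees of freedom. The procedure was tested on simulated data. Log2 CPM for spread and likeness used a prior count of 2. Permutation tests of 16 libraries drew 100000 resamples. No 2 libraries of a group were duplicates (chi-square per degree of freedom at least 12). Total counts of 4.685 to 48.4 M set the precision.

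The members, gene lists and alternatives were chosen with earlier results of these data known. Genes named beside the members were the 2 with the highest Pearson r to each. The symbol lists could not be used: the RefSeq gene table (47357 rows) holds 0 Ensembl identifiers. Alternatives used DESeq2 1.42.0, limma 3.58.1, sva 3.50.0, other scalings, filters and covariates, a replicate block and left-out libraries. The omission of D55 B and E together with control 2 was chosen after seeing the data, as were, for the correlation of the members, the omissions of D55 B and E and of each library in turn. Promoter sequences are from RefSeq (GRCr8), while the counts are on another build, so no coordinate was passed between them.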

Additional observations from a re-analysis of the deposited data

Results flagged for a closer look

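Values that stood apart from their group by Dixon's criterion at the 95% level were sought in 9 sets of values (Nppa, Nppb and their ratio in 3 groups), and 2 were found, where chance flags about 1 set in 20 if values are normally distributed. The ratio is made from the same Nppa and Nppb values, so the 9 sets are not independent. The number found can therefore not be tested against chance. Nppa in D55 B, at 266 CPM, lay above the other D55 libraries by a gap of 0.677 of the group's range. On the log2 scale that gap was 0.435, below the critical 0.625, so this value stood apart on the linear scale only. The log2 ratio of Nppb to Nppa in control 2, at -1.74, lay below the other controls by a gap of 0.885 of the range.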

How the results depend on the processing

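Neither member passed in edgeR with all libraries, and the exceptions among the alternatives were limma-voom for both members in D100 against control and, for Nppb between the doses, no scaling factors and leaving out D55 D. In limma-voom, D100 against control gave -1.04 for Nppa and -0.63 for Nppb, and D55 against control turned to -0.52 and -0.18. Limma-voom called 9594 genes in D100 against control and 522 in D55 against control, and DESeq2 1438 and 88, where edgeR called 621 and 9. Without scaling factors Nppa was at -1.22 in D100 against control and -1.52 between the doses, Nppb at -0.79 and -1.17, and 1172 genes were called in D100 against control (90 higher and 1082 lower, against 272 and 349 with scaling) and 5 in D55 against control. Between the doses the split was then 141 higher and 6875 lower, against 1944 and 3097. The medians of all genes moved from -0.03 to -0.48 in D100 against control, from 0.03 to 0.20 in D55 against control and from -0.03 to -0.65 between the doses.

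Adjusted for the count share of the 10 leading genes, the differences were, for Nppa, 0.44 in D100 against control, -0.35 in D55 against control and 0.79 between the doses, and for Nppb 0.06, -0.04 and 0.10, with 1407, 53 and 41 genes called. With 1 surrogate variable Nppa was at -0.17 in D100 against control, -0.28 in D55 against control and 0.11 between the doses, and Nppb at -0.19, 0 and -0.18, with 3164, 104 and 2064 genes called. Without D55 B and E, Nppa was at -0.79 in D55 against control and 0.16 between the doses, Nppb at -0.13 in D55 against control, and the log2 ratio of Nppb to Nppa differed by -0.26 between the doses, with 1493, 14 and 123 genes called. With control 2 left out as well, Nppa was at 0.16 in D100 against control and 0.16 between the doses, and Nppb at -0.18 in D55 against control, with 2 genes called in D55 against control and 82 between the doses. Without a filter 409 genes were called in D100 against control, and with the compared groups alone 1 in D55 against control and 3018 between the doses. The cause of these shifts was not tested.

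Leaving out 1 library at a time gave, for Nppa, -0.97 to 0.17 in D100 against control, -0.49 to 0.92 in D55 against control and -1.09 to -0.13 between the doses, and for Nppb -0.50 to -0.19, 0.02 to 0.33 and -0.61 to -0.37. The log2 ratio gave -0.40 to 0.38, -0.47 to 0.34 and -0.18 to 0.25, and the correlation of the members 0.62 to 0.83. The genes called were 180 to 1086, 0 to 15 and 1172 to 6745. For D55 against control edgeR called 0 genes in 5 of these fits, with 593 to 1656 at an unadjusted p under 0.05. Deviations of D55 and D100 libraries with the same replicate letter correlated from -0.50 to 0.63, above 0.1 in 3 of 6 pairs. Of the 6, 1 was best matched with its own letter. These values cannot decide whether the letters pair the rats, since differences in library composition enter them as well. With the replicate block Nppa was at -0.57 (edgeR adjusted p = 0.23) and Nppb at -0.49 (edgeR adjusted p = 0.074), and edgeR called 0 genes (5916 at an unadjusted p under 0.05). The atrial marker covariate was not run, since its symbols could not be matched. Depth set a counting error of at most 6.12% on a member's level in a library.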
